A study of Mus musculus with 31 samples.

Results

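Striatal projection neurons are the GABAergic output cells of the striatum. They receive dopamine and fall into cells that carry the D1 receptor (Drd1) and cells that carry the D2 receptor (Drd2) together with an adenosine receptor (Adora2a). The dopamine receptors act on cyclic AMP in opposite directions, and the pathway runs through a shared set of striatal signaling proteins that includes Ppp1r1b, Pde10a and Rgs9. The basolateral amygdala (BLA), a nucleus of mainly glutamatergic principal neurons, lies directly below the caudal striatum. It is bordered by intercalated cells, clusters of small GABAergic neurons that also receive dopamine and carry Drd1 and Foxp2.

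The 9 genes described here, Drd1, Drd2, Adora2a, Ppp1r1b, Pde10a, Rgs9, Rarb, Gpr6 and Foxp2, were chosen as genes of these neurons from the 48709 genes in the count tables, by symbol. They were measured in BLA punches of 31 mice on a C57BL/6N background by QuantSeq, which counts the 3′ ends of polyadenylated transcripts. The comparison was between 16 WT mice and 15 CYFIP1-overexpressing (CYFIP1 OE, hereafter OE) mice, which carry a bacterial artificial chromosome with the human CYFIP1 gene. OE mice came from a pair of founder lines, labelled 1 and 3. The study's text numbers its lines 1 and 2, and how these match the labels is not given in the sources used here. Ages carry no unit in the labels and were read as days. The line labelled 1 had 8 WT mice (4 male and 4 female, aged 59 to 61 days) and 7 OE mice (3 male and 4 female, aged 59 to 77 days). The line labelled 3 had 8 WT mice (4 male and 4 female, aged 58 to 60 days) and 8 OE mice (4 male and 4 female, aged 58 to 64 days). No treatment is given in the labels. The count tables list mouse genes and hold no separate row for the human transgene.

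Total counts ranged from 5286708 to 8685308 per mouse. One library stood apart, the male OE mouse 1 of line 3, with a connectivity Z-score (how strongly a mouse's profile correlates with those of all others) of -4.74 against -1.18 for the next lowest. The 4 oldest mice, aged 77 days, all belonged to the OE group of line 1. Library names started with 10 different prefixes, and 4 mice of line 3 (3 WT and 1 CYFIP1 OE, mouse 1 among them) shared the prefix X424. What the prefixes mean is not given in the sources used here. Results below are given with and without these mice where they bear on a value. The tissue label was checked against 7 markers of BLA principal neurons. All 7 were measured, and their summed CPM (read counts scaled to the TMM-normalized library size) was between 567.6 and 3775. Slc17a7, the vesicular glutamate transporter of these neurons, ranged from 3.01 to 1109 CPM, so the punches differed widely in their share of transcripts of principal neurons.

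The genes lie on different chromosomes or far apart. In GRCm38 Drd1 (ENSMUSG00000021478) is at chr13:54051183-54055705 and Drd2 (ENSMUSG00000032259) at chr9:49340627-49408177. Adora2a (ENSMUSG00000020178) is at chr10:75316877-75334784 and Gpr6 (ENSMUSG00000046922) at chr10:41069977-41072285. Ppp1r1b (ENSMUSG00000061718) is at chr11:98348404-98357796 and Rgs9 (ENSMUSG00000020599) at chr11:109225355-109298129. Pde10a (ENSMUSG00000023868) is at chr17:8525372-8986648, Rarb (ENSMUSG00000017491) at chr14:16430839-16819156 and Foxp2 (ENSMUSG00000029563) at chr6:14901349-15441977. Other annotated genes overlap Foxp2 on the same strand (Gm25470) and Ppp1r1b, Pde10a and Rarb on the opposite strand.

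Upstream sequences are shown for a pair of the genes because these are the members in whose window a searched motif was found. RefSeq promoter windows of GRCm38.p6 were given for 6 of the 9 genes, 8 windows in all, and the 250 bases before each start were searched on both strands. The cyclic AMP response element TGACGTCA, which binds the factor CREB, was found in Gpr6, 78 to 71 bases before its start, and in 1.55% of the 32851 promoters. The retinoic acid response element, searched as GGTTCA and AGTTCA separated by 5 bases, was found in Rarb, 53 to 37 bases before its start, and in 0.00609% of promoters. The forkhead motif TGTTTAC was found in 0 of the 8 windows and in 3.17% of promoters. The motifs do not overlap each other. Each match is a run of letters only. The retinoic acid response element was searched in 1 exact spelling, so its share of promoters is that of this spelling and not of the element. Its match in Rarb is given as a description and does not test whether the element is special to this gene. The start used for Rarb is 1 inside the annotated gene. The lines below give the window of Gpr6 (chr10:41072291-41072540, minus strand) and of Rarb (chr14:16575477-16575726, minus strand), with the motif in capitals.
Gpr6: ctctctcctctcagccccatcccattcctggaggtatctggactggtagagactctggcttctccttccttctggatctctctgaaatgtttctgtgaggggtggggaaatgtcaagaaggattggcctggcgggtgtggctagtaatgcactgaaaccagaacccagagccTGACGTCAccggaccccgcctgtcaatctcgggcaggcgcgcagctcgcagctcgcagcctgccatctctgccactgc
Rarb: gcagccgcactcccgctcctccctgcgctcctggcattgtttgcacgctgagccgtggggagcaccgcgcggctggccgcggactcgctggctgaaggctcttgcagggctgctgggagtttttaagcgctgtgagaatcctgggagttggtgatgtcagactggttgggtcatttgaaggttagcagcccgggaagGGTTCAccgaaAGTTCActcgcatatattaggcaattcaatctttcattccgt

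Of the 9 genes, 8 passed the filter of 10 or more reads in no fewer than 20% of mice and were tested with the 17428 genes that passed it. Drd2 did not pass. It had 41 reads over all 31 mice, with 0 reads in 20 mice and at most 15 in any, while Adora2a, which the same neurons carry, had 16900 reads and at least 75 in every mouse. Drd2 was at most 1.74 CPM. Levels of 8 genes therefore carry the results, and Drd2 is described by its reads.

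The dopamine receptor Drd1 was measured in every mouse but at very different levels. It had a median of 166.6 CPM over the 31 mice, a lowest value of 9.71 and a highest of 328.4, a 33.8-fold range. In WT mice of line 1 it was 139.1 at the lowest, 188.6 at the median and 231.5 CPM at the highest. In WT mice of line 3 the same 3 values were 9.71, 115.6 and 300.0 CPM. The 8 WT mice of line 3 thus spanned almost the range of the whole series, while those of line 1 lay close together.

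Adora2a, the adenosine receptor of the Drd2-carrying neurons, ranged from 7.58 to 170.7 CPM with a median of 75.05, a 22.5-fold range. Gpr6, an orphan receptor of the same neurons that raises cyclic AMP, ranged from 0.179 CPM (1 read) to 40.9 CPM (276 reads), with a median of 19.9 CPM. Its lowest values rest on few reads. Both genes were thus read in all 31 mice although Drd2 was not.

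Among the signaling proteins, Ppp1r1b, a dopamine-controlled inhibitor of protein phosphatase, had a median of 1045 CPM and a range from 110.9 to 2208. Pde10a, which breaks down cyclic AMP and cyclic GMP, had a median of 194.2 CPM and a range from 15.1 to 407.6. Rgs9, which shortens signaling through G proteins, had a median of 130.9 CPM and a range from 6.57 to 268.5. The highest mouse was 19.9 times the lowest for Ppp1r1b, 27.1 times for Pde10a and 40.9 times for Rgs9.

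The transcription factors differed from each other in spread. Rarb, a nuclear receptor for retinoic acid needed for striatal development, ranged from 1.61 to 65.3 CPM with a median of 30.97. Foxp2, a forkhead factor of Drd1-carrying and intercalated cells, ranged from 10.6 to 105.3 CPM with a median of 66.7, a 9.92-fold range and the narrowest of the 8. The standard deviation of log2 CPM over mice was 0.75 for Foxp2 and 1.07 to 1.64 for the other 7, against a median of 0.52 over all tested genes. In this measure the 7 stood between the 90.3rd and the 98.9th percentile of all tested genes, and Foxp2 stood at the 70.1st. Since these are punches of bulk tissue, more cells of a type and more RNA per cell cannot be told apart in any of these values.

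**Figure D1:**
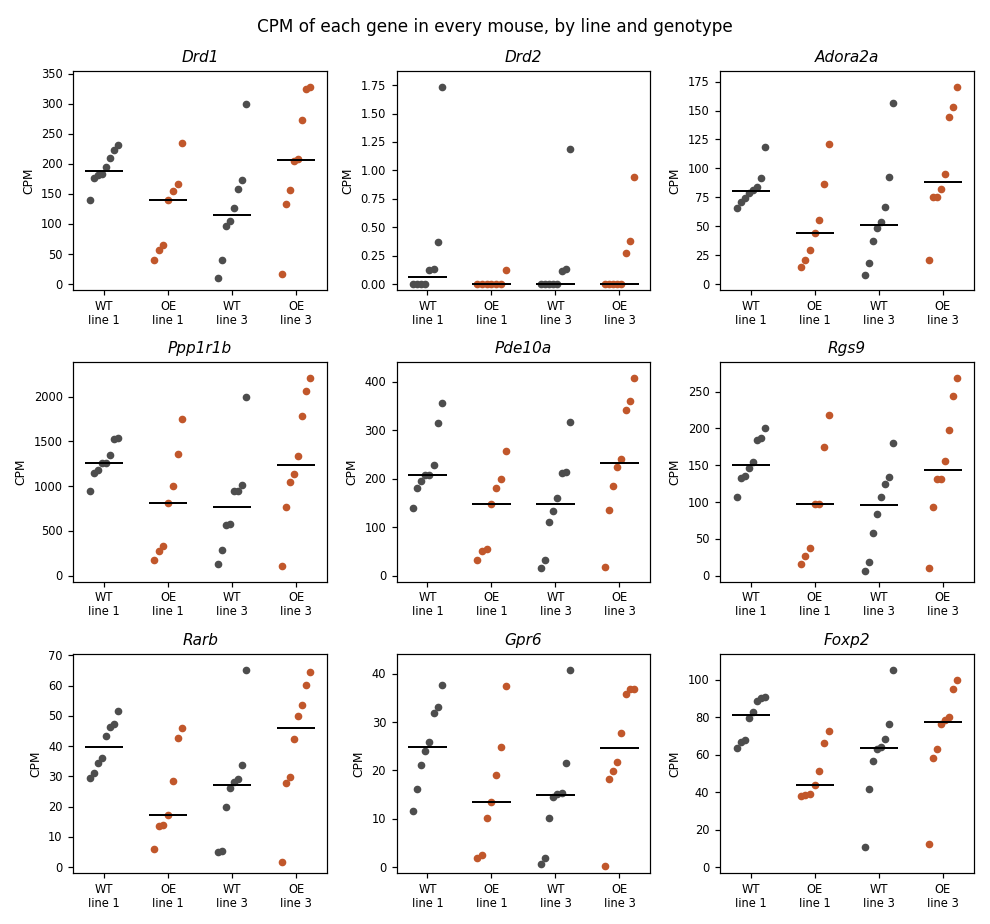
CPM of each of the 9 genes (vertical axes, linear, 1 panel a gene) in every mouse, by line and genotype (horizontal axes); each point is 1 mouse and each bar is the median of its group. WT mice of line 1 lie close together, as in Ppp1r1b (947.2 to 1533 CPM), while the other 3 groups span wide ranges, and Drd2 stays at or under 1.74 CPM.

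The same mice were low or high for all of these genes. WT mouse 2 of line 3, OE mouse 1 of line 3 and OE mouse 7 of line 1 were among the 5 lowest mice for all 8 genes, and WT mouse 1 of line 3 and OE mouse 2 of line 1 for 7 of the 8. OE mouse 3 of line 3 was among the 5 highest for all 8 genes. WT mouse 14 and OE mice 10 and 14, all of line 3, were among the 5 highest for 7. Both genotypes and both lines, though no WT mouse of line 1, were thus among the lowest mice, and both genotypes among the highest.

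The genes moved together over mice to a degree that left little separate variation. Pearson's r of log2 CPM (prior count 2) was between 0.81 and 0.98 in the 28 pairs of the 8 genes (two-sided permutation tests with 100000 resamples, adjusted p = 1.29e-05 in each over 36 pairs, with unadjusted p at the smallest value these resamples can give). Spearman's rho was between 0.70 and 0.94 (adjusted p from 1.33e-05 to 3.86e-05 by permutation). The pair with the highest r was Drd1 and Pde10a, at 0.98, and the pair with the lowest was Adora2a and Foxp2, at 0.81. A first principal component of the 8 genes held 93.9% of their standardized variance, and the second held 2.93%. The genes share their libraries and the scaling factor of each library, so part of any r between them can be shared by construction.

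The relation held inside the groups. Within line 1 the 28 values of r were between 0.65 and 0.98, and within line 3 between 0.89 and 0.99. Within WT mice they were between 0.88 and 0.99, and within OE mice between 0.76 and 0.99. Without the 2 mice farthest from the median of the first gene r was between 0.74 and 0.98, and without the 4 mice of prefix X424 between 0.72 and 0.97. Drd2, with its few reads, had r between 0.36 and 0.46 with the other 8 genes (adjusted p from 0.0126 to 0.0391 by permutation). Within line 1 it was between 0.24 and 0.36, with 0 of the 8 pairs passing an adjusted p of 0.05 by permutation.

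Drd1 and Adora2a, which mark the separate types of projection neuron, had r = 0.94 and rho = 0.88 (permutation, adjusted p = 1.29e-05 and 1.33e-05). Their difference within a mouse, Adora2a minus Drd1 on the log2 CPM scale, was -1.12 ± 0.32 in WT mice (SD, n = 16) and -1.06 ± 0.47 in OE mice (SD, n = 15). It lay between -1.79 and 0.26 over all mice, a span of 2.05 log2 units against 5.04 for Drd1 and 4.44 for Adora2a. The balance of the 2 receptors thus varied less between punches than either level did. Of the 8 genes Foxp2 followed the others least closely, with r between 0.81 and 0.93. Foxp2 minus Ppp1r1b ranged from -5.15 to -1.99 in line 1, with an SD of 0.28 in WT mice and 1.09 in OE mice of that line.

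**Figure D2:**
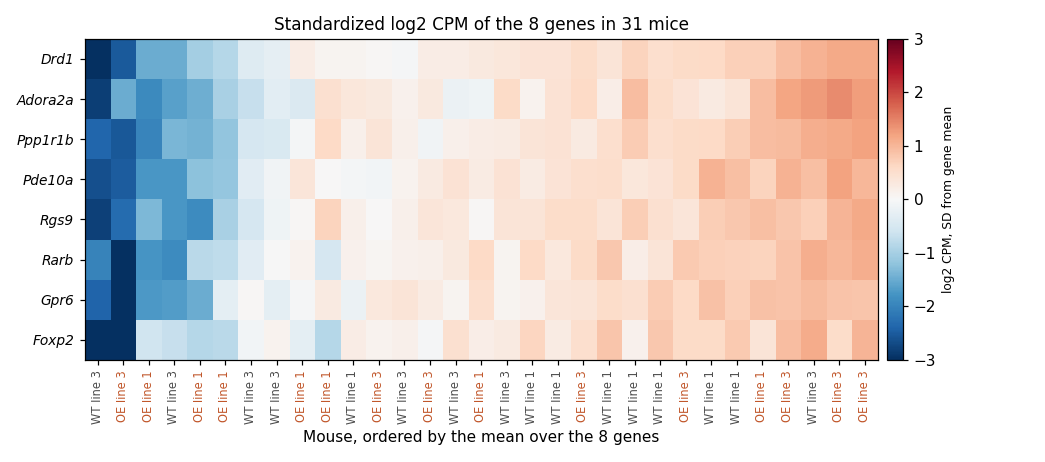
Standardized log2 CPM (color, in SD from each gene's mean; values beyond 3 SD in the end color) of the 8 genes that passed the filter (rows) in the 31 mice (columns, ordered by the mean over the 8 genes, labels colored by genotype). Whole columns are low or high together, and the 5 lowest columns hold WT mice of line 3 and OE mice of both lines.

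Genes of the same neurons outside the 9 were then read in the same way. The mean r of a gene with the 8 genes had a median of -0.016 over the other 17420 tested genes, and 49 genes had a mean r over 0.9. Among the 10 highest were Pde1b, Scn4b, Gnal, Tac1, Tmem158, Meis2, Camk4, Nexn and Pcp4, each with a mean r of at least 0.94. Scn4b, a sodium channel subunit, ranged from 2.63 to 466.6 CPM with a mean r of 0.95. Gnal, the G protein subunit that couples Drd1 and Adora2a to adenylyl cyclase, had a mean r of 0.95. Pde1b, Scn4b, Gnal, Tac1 and Meis2 were on the lists of projection neuron genes.

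All 17 genes on the list shared by both types of projection neuron had a positive mean r, at 0.82 (Six3) or above, with a median of 0.93. Bcl11b and Foxp1, transcription factors of these neurons and of other forebrain cells, were at 0.87 and 0.86. The list of Drd1-type genes had 6 tested members with a median of 0.79, from 0.17 for Eya1 to 0.95 for Tac1, the precursor of substance P. Pdyn, the precursor of dynorphin, was at 0.77. Chrm4, a muscarinic receptor of the same neurons, had 2 reads in all and was not tested. The list of Adora2a-type genes had 3 tested members, with Penk, the precursor of enkephalin, at 0.92, Gucy1a1 at 0.78 and Sp9 at 0.58. Penk ranged from 65.0 to 1932 CPM. The peptides and signaling genes of both types were thus high in the same mice, with Chrm4 and Drd2 too low in reads to be compared.

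Markers of intercalated cells were mixed. Pbx3 had a mean r of 0.85, while Tshz1, a factor of intercalated cells, had 0.15 and Oprm1, the mu opioid receptor, had 0.12. Tshz1 was between 15.9 and 59.3 CPM, and Oprm1 was at most 2.88 CPM. Family members of the 9 genes mostly did not follow them. The 15 tested members had a median mean r of 0.062, and Rgs7bp, a partner of Rgs9, at 0.79 and Ppp1r1a at 0.76 were the highest. Rara and Rarg, the other retinoic acid receptors, were at 0.078 and 0.062, Adora1 at 0.060 and Drd5 at -0.16. Drd3 had 0 reads in all 31 mice and Drd4 had 90 reads in all.

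**Figure D3:**
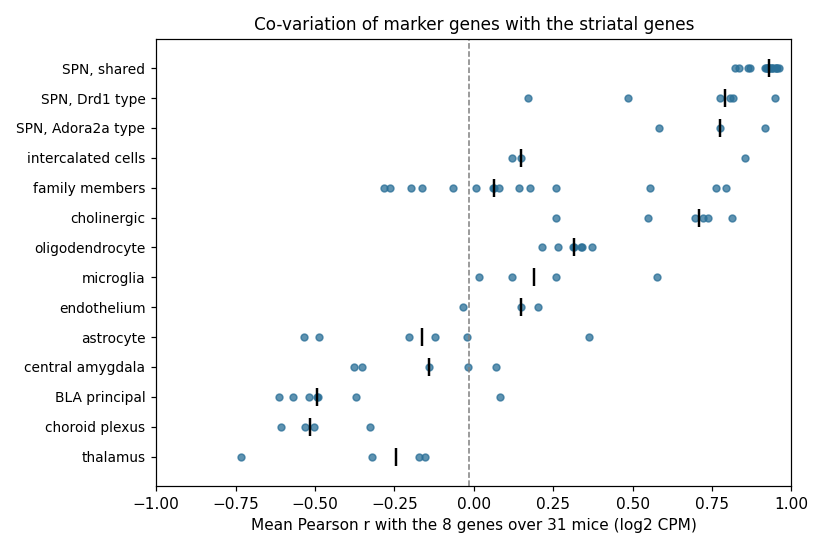
Mean Pearson r over 31 mice of each tested marker gene (points) with the 8 striatal genes (horizontal axis), by list (vertical axis); black bars are list medians and the dashed line is the median of all 17420 other tested genes, -0.016. All 17 shared projection neuron genes lie at 0.82 or above, and 6 of the 7 BLA principal neuron genes lie below 0.

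Markers of other cells varied with the 9 genes over mice, which was tested with the summed CPM of 9 lists (81 relations, of which 35 had an adjusted p under 0.05 by permutation). The cholinergic neurons of the striatum and basal forebrain, with Chat, Slc18a3, Slc5a7, Lhx8 and Gbx1 among their 6 listed markers, had the highest r of the 9 lists. The r of their summed CPM with the 8 genes was between 0.72 and 0.84 (adjusted p from 0.000135 to 0.00108, permutation), and rho was between 0.60 and 0.75. The sum was at its lowest, 0.708 CPM, in line 3 WT mice and at its highest, 71.3 CPM, in line 1 OE mice. The r was between 0.54 and 0.81 within line 1, between 0.79 and 0.93 within line 3, between 0.51 and 0.70 without the 2 farthest mice, and between 0.53 and 0.75 without prefix X424.

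The BLA principal neuron list ran the other way. Its r with the 8 genes was between -0.66 and -0.51 (adjusted p from 0.00108 to 0.011, permutation) and rho between -0.57 and -0.41. Of its 7 genes, 6 had a negative mean r, from -0.61 for Neurod2 to -0.37 for Rspo2. This relation rested in part on few mice. It was between -0.50 and -0.35 within line 1, between -0.79 and -0.62 within line 3, between -0.48 and -0.24 without the 2 farthest mice, and between -0.42 and -0.30 without prefix X424. OE mouse 1 had the highest sum of this list, 3775 CPM, together with the lowest Ppp1r1b.

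The thalamus list (Tcf7l2, Slc17a6, Lef1 and Ntng1) also ran against the 8 genes, with r between -0.69 and -0.54 (adjusted p from 0.000405 to 0.00597, permutation) and rho between -0.83 and -0.52. Without prefix X424 its r was between -0.68 and -0.54, within line 1 between -0.78 and -0.56 and within line 3 between -0.67 and -0.50. Ntng1 had the lowest mean r of its 4 genes, -0.73, and the other 3 were between -0.32 and -0.15. The choroid plexus list had r between -0.55 and -0.43 (adjusted p from 0.00353 to 0.0266, permutation), and rho between -0.54 and -0.32 (adjusted p from 0.00714 to 0.129, permutation), but r was between -0.27 and -0.03 without prefix X424 and between -0.28 and 0.09 within line 1. By r, the oligodendrocyte and microglia lists each passed the adjusted threshold with 1 of the 8 genes, and the central amygdala, astrocyte and endothelium lists with 0. The central amygdala list had r between -0.25 and -0.10, but between -0.57 and -0.36 without prefix X424. The microglia list had r between 0.0054 and 0.44 and rho between 0.31 and 0.68 (adjusted p of rho from 0.000347 to 0.134, permutation). OE mouse 1 had its highest sum, 287.0 CPM, and without this mouse r was between 0.49 and 0.76. The part of these other cells in the spread of the 9 genes was not tested beyond these relations.

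**Figure D4:**
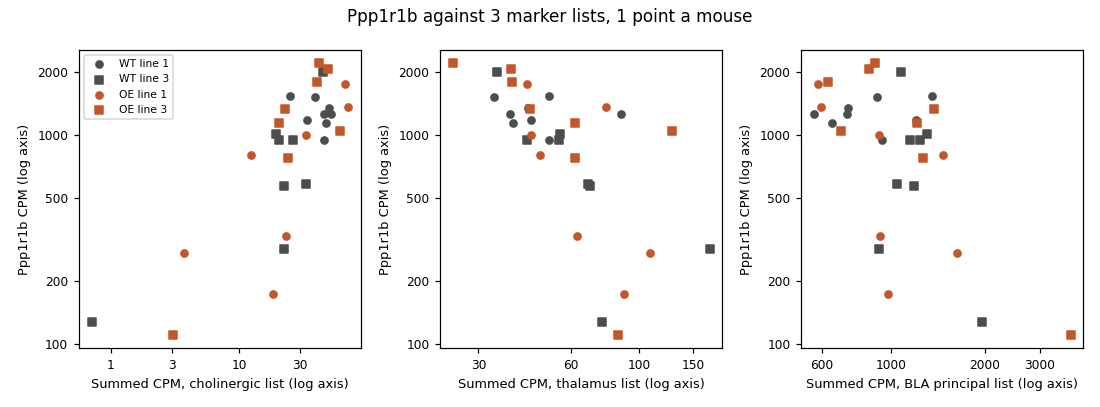
Ppp1r1b CPM (vertical axes, log scale) against the summed CPM of the cholinergic, thalamus and BLA principal neuron lists (horizontal axes, log scale), 1 point a mouse, with color for genotype and shape for line. Ppp1r1b is higher where the cholinergic sum is higher and lower where the sums of the other lists are higher, and the mouse with the highest BLA principal neuron sum (3775 CPM) has the lowest Ppp1r1b (110.9 CPM).

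More of the variance lay between name prefixes than between the groups of line and genotype. Between 54.4% (Ppp1r1b) and 63.4% (Rgs9) of the variance of log2 CPM lay between the 10 prefixes, and between 10.8% and 21.5% lay between the 4 groups of line and genotype, as a description, since a share grows with the number of groups. In the 4 mice of prefix X424 Ppp1r1b was 110.9, 127.6, 284.7 and 949.2 CPM. Of the 8 WT mice of line 1, 7 shared another prefix, X426, which no mouse of another group had, so that in line 1 prefix and genotype cannot be told apart for them.

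Genotype was tested first over both lines, with sex and line as covariates in edgeR's quasi-likelihood test. The WT and OE mice overlapped over most of their range for all 8 genes. Drd1 was 159.0 ± 72.8 CPM in WT (SD, n = 16) and 166.9 ± 97.5 CPM in OE mice (SD, n = 15). Ppp1r1b was 1041 ± 482.1 and 1078 ± 681.4 CPM, and Foxp2 was 69.7 ± 22.2 and 60.9 ± 23.9 CPM. The log2 fold changes (OE minus WT) were 0.03 for Drd1 (SE 0.34, p = 0.929), 0.06 for Adora2a (SE 0.33, p = 0.862), -0.02 for Ppp1r1b (SE 0.35, p = 0.955) and -0.22 for Foxp2 (SE 0.22, p = 0.318). None of the 8 genes was called at the study's threshold, an unadjusted p under 0.005, which 0.293% of all tested genes passed, and adjusted p was at least 0.999 in edgeR. The 95% intervals allow changes of at least 0.62 log2 units in both directions for the 7 genes other than Foxp2, whose interval ran from -0.67 to 0.22. In the 5 name prefixes that held both genotypes (9 WT and 9 OE mice) the log2 fold changes were between 0.10 (Foxp2) and 0.51 (Adora2a), with p from 0.297 to 0.768 in edgeR. With the prefix as a block in the same mice they were between -0.32 (Foxp2) and 0.045 (Adora2a), with p from 0.336 to 0.927 in edgeR.

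The lines differed in the sign of the genotype difference. In line 1 all 8 genes were lower in OE than in WT mice, and in line 3 all 8 were higher, though in edgeR none passed the threshold in either line. These values depended on the model and the mice, as given below. The lines used separate WT mice. Levels of the 8 genes rose and fell together over mice, so the 8 genes are not 8 separate observations of this pattern.

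In line 1 Ppp1r1b was 947.2 CPM at the lowest, 1261 at the median and 1533 at the highest in WT mice. In OE mice it was 173.5, 807.0 and 1755 CPM, with 4 of 7 mice below the lowest WT mouse and 1 above the highest. The log2 fold change came to -0.81 (SE 0.46, p = 0.0910 in edgeR). The OE mice thus reached below and above the WT range. For Drd1 it was -0.73 (SE 0.45, p = 0.118 in edgeR), with 3 of 7 below the lowest WT mouse, and Adora2a -0.74 (SE 0.44, p = 0.0999 in edgeR), with 5 of 7. For Pde10a, Rgs9, Rarb and Gpr6 the log2 fold changes were between -0.86 and -0.81, with p from 0.0747 to 0.163 in edgeR. With 5 surrogate variables, computed factors of variation not explained by the model, the fold changes of the 8 genes in line 1 were between -0.38 (Rgs9) and -0.22 (Gpr6), and without the mice aged 77 days between -0.63 (Gpr6) and -0.44 (Drd1). Line 1 had 1 prefix with both genotypes, with 1 mouse of each, so no value within prefixes was fitted.

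Foxp2 had the smallest p of the 8 genes in line 1. It was 63.5 CPM at the lowest, 81.2 at the median and 90.9 at the highest in WT mice, and 38.2, 43.6 and 72.7 CPM in OE mice. All 7 OE mice were below the WT mean and 5 of 7 were below the lowest WT mouse. The log2 fold change came to -0.68 (SE 0.30, 95% interval -1.29 to -0.08, p = 0.0277 and adjusted p = 1 in edgeR). In line 1 none of the 8 genes passed the threshold, which 0.350% of all tested genes did. Foxp2 passed it when line 1 was fitted alone (log2 fold change -0.67, p = 0.000347, adjusted p = 0.632 in edgeR) or when the mice of prefix X424, all of line 3, were left out of the joint fit (-0.68, p = 0.000123, adjusted p = 0.310). In both of these runs more of all tested genes passed than in the main fit, as given below. Without the 4 mice aged 77 days, which leaves 3 OE mice in line 1, the fold change was -0.48 (p = 0.249 in edgeR), and age and genotype cannot be told apart for those mice.

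In line 3 Ppp1r1b was 127.6 CPM at the lowest, 761.4 at the median and 2001 at the highest in WT mice, and 110.9, 1237 and 2208 CPM in OE mice. Its groups overlapped almost fully. The log2 fold change came to 0.67 (SE 0.43, p = 0.134 in edgeR). Drd1 was 17.0 CPM at the lowest, 206.8 at the median and 328.4 at the highest in OE mice. Its log2 difference was 0.71 (SE 0.43, p = 0.109 in edgeR), with 7 of 8 mice above the WT mean. Adora2a had a log2 fold change of 0.76 (SE 0.41, p = 0.0744 in edgeR), also with 7 of 8 above the WT mean. Foxp2 had the smallest difference, 0.20 (SE 0.28, p = 0.483 in edgeR). None of the 8 genes passed the threshold in line 3, which 0.930% of all tested genes did.

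The values of line 3 moved with the mice included. Without OE mouse 1 the fold changes of line 3 were larger, from 0.37 for Foxp2 to 0.97 for Rgs9, with p from 0.027 to 0.131 in edgeR. Without all 4 mice of prefix X424 they were smaller, from 0.10 for Foxp2 to 0.60 for Rgs9 and Gpr6, with p from 0.12 to 0.568. With 5 surrogate variables in the model they were between -0.17 (Gpr6) and 0.16 (Rarb), and Ppp1r1b was also below 0, at -0.12. All 16 mice of line 3 had prefixes with both genotypes. With the 4 prefixes as a block in these mice the fold changes were between -0.21 (Foxp2) and 0.34 (Adora2a), with p from 0.446 to 0.956 in edgeR, and Ppp1r1b was 0.14 (SE 0.50, p = 0.785).

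The difference of the genotype differences (line 3 minus line 1) was tested itself. On the log2 scale it was 1.43 for Drd1 (SE 0.62, p = 0.0279 in edgeR), 1.497 for Adora2a (SE 0.60, p = 0.0175), 1.47 for Ppp1r1b (SE 0.63, p = 0.0260) and 0.88 for Foxp2 (SE 0.41, p = 0.0378). Gpr6 had a p of 0.0607 and the other 3 genes had p from 0.0245 to 0.0334 in edgeR. None of the 8 genes passed the threshold of 0.005, which 0.843% of all tested genes passed, and the smallest adjusted p among the 8 was 0.556. Without OE mouse 1 Rarb (1.64, p = 0.00419 in edgeR) and Foxp2 (1.05, p = 0.00427) passed it, without WT mouse 14 (1.79, p = 0.0040) or OE mouse 9 (1.79, p = 0.00494) Adora2a did, and without prefix X424 Foxp2 did (0.78, p = 0.00213). The share of 0.843% is that of the main fit. Without OE mouse 1 more of all tested genes passed as well, as given below. For the runs without WT mouse 14, OE mouse 9 or prefix X424 the share over all tested genes is not reported here. The genes that passed in those runs therefore cannot be set against their background. Without the mice aged 77 days the p of the 8 genes was between 0.0874 and 0.187 in edgeR, and with 5 surrogate variables the differences shrank to between 0.05 and 0.51.

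**Figure D5:**
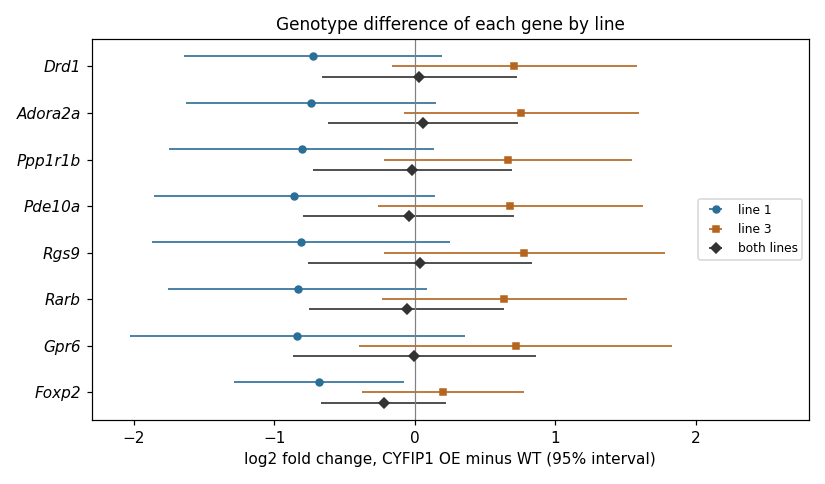
log2 fold change of OE minus WT (horizontal axis) for the 8 genes (vertical axis) in line 1, in line 3 and in both lines, with 95% intervals from edgeR. All 8 values are below 0 in line 1 and above 0 in line 3, and every interval but that of Foxp2 in line 1 (-1.29 to -0.08) includes 0.

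WT mice of the lines were also compared with each other. All 8 genes were lower in WT mice of line 3 than of line 1, by log2 differences from -0.83 (Gpr6) to -0.38 (Foxp2), with p from 0.103 to 0.239 in edgeR. These mice carry no transgene and are also the reference of the genotype difference in each line. The line difference is therefore not separate from the genotype differences, and its part in them was not tested. None of the 8 passed the threshold, which 0.373% of all tested genes did. Without prefix X424 the line difference was between -0.50 and -0.12. Sp9, a factor of Adora2a-type neurons, did pass, at -0.80 (SE 0.23, p = 0.0015, adjusted p = 1 in edgeR). All 8 genes were higher in females than in males, by 0.19 (Pde10a) to 0.42 (Ppp1r1b) log2 units, with p from 0.218 to 0.595 in edgeR. None passed the threshold, which 0.436% of all tested genes did. Of all tested genes 46.6% were higher in females, and 51.6% were higher in WT mice of line 3 than of line 1. The 8 genes varied together, so here too they are not 8 separate observations.

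Other projection neuron genes mostly had the same signs. In line 1 all 17 genes of the shared list were below 0 (median log2 fold change -0.65, against 50.4% of all tested genes above 0), and in line 3 all 17 were above 0 (median 0.68, against 47.4%). The 17 genes varied with the tested striatal genes over these same mice, at a mean r of 0.82 to 0.96. Their signs are therefore not 17 separate observations and add no separate support to the pattern. The shares of all tested genes are given as a description only. The difference between lines had a median of 1.24 over the 17 genes, and 1 of the 17, Actn2, an actin-binding protein of synapses, passed the threshold, with a log2 difference of 1.66 (SE 0.53, p = 0.00341, adjusted p = 0.535 in edgeR). In either line 0 of the 17 passed it. Over all tested genes 0.843% passed it in that difference, 0.35% in line 1 and 0.93% in line 3. Foxp1, a factor related to Foxp2, had 1.17 (p = 0.00702 in edgeR). Tac1 was at -0.62 in line 1 and 0.49 in line 3, and Penk at -0.65 and 0.51, with p from 0.127 to 0.220 in edgeR. The medians of the Drd1-type and the Adora2a-type lists were -0.15 and -0.61 in line 1, and 0.38 and 0.31 in line 3, with 0 of 6 and 0 of 3 genes called in either line. Of the 6 Drd1-type genes 5 were below 0 in line 1 (Eya1 was at 0.026) and 6 above 0 in line 3, and of the 3 Adora2a-type genes 3 were below 0 in line 1 and 2 above 0 in line 3 (Gucy1a1 was at -0.0083).

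Markers of other cells moved beside these values. The 7 BLA principal neuron genes were all above 0 in line 1 (median 0.59) and 5 of 7 were below 0 in line 3 (median -0.31), and all 7 were higher in WT mice of line 3 than of line 1 (median 0.86). The sum of this list was 567.6 to 1354 CPM in WT and 583.4 to 1631 CPM in OE mice of line 1, and 917.9 to 1954 and 628.8 to 3775 CPM in line 3. The 4 thalamus genes were above 0 in line 1 (median 0.47) and 3 of 4 were below 0 in line 3 (median -0.22). The 6 cholinergic genes were below 0 in line 1 (median -0.30) and 5 of 6 were above 0 in line 3 (median 0.48). The 4 choroid plexus genes were below 0 in both lines (median -0.62 in line 1 and -1.35 in line 3) and higher in WT mice of line 3 than of line 1 (median 1.45). Of the 5 central amygdala genes 4 were above 0 in line 1 (median 0.66) and 4 below 0 in line 3 (median -0.085). No gene of these 5 lists passed the threshold in either line or in the difference between lines. Their part in the genotype values of the 9 genes was not tested.

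Of the intercalated cell list 0 of 3 genes passed the threshold. Pbx3 had a log2 fold change of 0.72 in line 3 (SE 0.27, p = 0.0123 in edgeR) and -0.09 in line 1, and Tshz1 had -0.24 in line 3 and 0.14 in line 1, signs opposite to those of the 8 genes. Among the family members 1 of 15 passed it in line 1, where 0.35% of all tested genes did. Gpr12, the relative of Gpr6 that also raises cyclic AMP, had a log2 fold change of -0.58 in line 1 (SE 0.16, p = 0.00103, adjusted p = 1 in edgeR) and 0.005 in line 3 (SE 0.15, p = 0.974). The difference between the lines, 0.58 (p = 0.0131 in edgeR), did not pass.

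Genotype was last tested on the balance between the genes within a mouse, which does not depend on how much striatal RNA a punch held if all of the genes change alike. Foxp2 and Ppp1r1b did not change alike over mice, with an SD of log2 CPM of 0.75 and 1.16. Their difference can therefore still follow the level of Ppp1r1b in a punch. In line 3 Foxp2 minus Ppp1r1b was -3.56 ± 0.46 log2 units in WT mice and -4.03 ± 0.49 in OE mice (SD, 8 mice each), a difference of -0.47 (exact permutation test, two-sided, p = 0.0685, adjusted p = 0.5 over 12 tests). In line 1 the difference was 0.37 (exact permutation test, p = 0.389). Adora2a minus Drd1, chosen after Drd2 was seen to have few reads, differed by -0.07 in line 1 (exact permutation test, p = 0.697), by 0.15 in line 3 (exact permutation test, p = 0.535) and by 0.04 over both lines (permutation within line, p = 0.773). Drd2 minus Drd1 and Adora2a minus Drd2 rest on the few reads of Drd2 and differed with p from 0.0834 to 0.608 by permutation. None of the 12 tests reached p = 0.05, adjusted or unadjusted.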

How the data were processed

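BLA tissue of 31 mice (left and right pooled per mouse) was sequenced by QuantSeq. The authors mapped the reads to GRCm38 and deposited a table of expected counts per mouse for 48709 genes, and the labels' processing notes name STAR, Picard, MultiQC and Salmon. These estimated counts, with decimals and without normalization, were rounded to whole numbers here. Gene symbols and positions came from GENCODE annotation of GRCm38 and named 48349 identifiers. A filter of 10 or more reads in no fewer than 20% of mice left 17428 genes. Total counts were 5286708 to 8685308 per mouse, which limits genes with few reads, and p-values measure the spread between mice. The correlation permutations and the main edgeR fits treated mice as independent within their model, without regard to name prefix. Mice of a prefix may be alike, so these p-values may be too small.

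edgeR 4.0.16 (R 4.3.3) was used with TMM normalization and quasi-likelihood F tests, two-sided for 1 term, with sex, line and genotype, or genotype within line. A gene was called at the study's unadjusted p under 0.005, and adjusted p is Benjamini-Hochberg over all tested genes. The study's sequencing principal components were not used here, and alternatives used 5 surrogate variables (sva 3.50.0) in their place, name prefix as a block, or DESeq2 1.42.0. CPM values are TMM-normalized, and log2 CPM used a prior count of 2. Correlations, ratios and permutations (100000 resamples, or all arrangements within 1 line) used numpy and scipy 1.17.1. Counts were simulated for 17428 genes, with 200 changed by a log2 fold of 1. The changed genes were drawn from those with an average log2 CPM over 2. Mice were drawn independently, without regard to name prefix. At an adjusted p under 0.05, edgeR recovered 182 over both lines with 13 false calls. It recovered 147 in line 3 with 2 false calls and 74 in the difference between lines with 1 false call. Recovery was not tested at the unadjusted p under 0.005 used for calls, nor for the 8 striatal genes themselves. The biological coefficient of variation of these 8 genes in edgeR was 0.41 for Foxp2 and between 0.60 (Adora2a) and 0.80 (Gpr6) for the rest. Its median over all tested genes was 0.34.

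The 9 genes and all marker lists were chosen with earlier results of these data known. Named besides the 9 were the 10 genes that varied most like them, and from each list some of its 3 most abundant genes and each gene with p under 0.005 in a genotype comparison; other list genes named were chosen after their values were seen. Some genes that these rules name are not reported here. Promoter windows came from RefSeq (GRCm38.p6).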

Additional observations from a re-analysis of the deposited data

Results flagged for a closer look

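Within each line and genotype, 36 groups of 7 or 8 mice were tested for a mouse far from the others (Dixon's test on CPM), and 5 had one; chance gives about 1 in 20. In Ppp1r1b, WT mouse 14 of line 3 had 2001 CPM, and the next highest WT mouse of that line had 1014. The other 4 concern Drd2 and rest on few reads: 1.737 CPM (15 reads) in WT mouse 5 and 0.1264 CPM (1 read) in CYFIP1 OE mouse 9, both of line 1, and 1.185 CPM (8 reads) in WT mouse 14 and 0.9396 CPM (6 reads) in CYFIP1 OE mouse 14, both of line 3. WT mouse 14 and CYFIP1 OE mouse 14 were also among the 5 highest mice for 7 of the 8 other genes. WT mouse 5 was among the 5 highest for 2 of them.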

How the results depend on the processing

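Genes under p = 0.005 over all tested genes changed with the processing, and this decides the background against which the 8 genes are read. In both lines there were 51, with 81 by DESeq2, 366 without a filter on low counts and 111 with 5 surrogate variables. In line 1 there were 61, with 217 without a filter, 99 with surrogate variables, 111 from line 1 alone and 124 without prefix X424. In line 3 there were 162, with 347 without a filter, 79 with surrogate variables, 80 from line 3 alone 91 without prefix X424 and 81 with name prefix as a block. In the difference between lines there were 147, with 591 without a filter, 47 with surrogate variables, 93 without mice aged 77 days and 348 without the low connectivity mouse. In WT mice of line 3 against line 1 there were 65, with 106 by DESeq2 and 121 from WT mice alone. Leaving out each mouse in turn gave 33 to 78 genes in both lines, 36 to 115 in line 1 (lowest without OE mouse 7, highest without OE mouse 9), 98 to 367 in line 3 (highest without WT mouse 14), 96 to 348 in the difference between lines (highest without OE mouse 1) and 31 to 120 between WT mice (lowest without WT mouse 2, highest without WT mouse 14). Causes were not tested.

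The log2 fold changes over both lines changed sign often. With surrogate variables Drd1 was -0.063, Adora2a -0.16 and Rgs9 -0.19, and in line 3 Ppp1r1b was -0.12 and Gpr6 -0.17. Without prefix X424 Drd1 was -0.17, Adora2a -0.15 and Rgs9 -0.18. For Ppp1r1b, Pde10a, Rarb and Gpr6, in this order, the values were 0.28, 0.30, 0.24 and 0.29 without mice aged 77 days, 0.28, 0.32, 0.23 and 0.29 with age added, 0.073, 0.043, 0.033 and 0.099 without the low connectivity mouse, and 0.39, 0.39, 0.38 and 0.41 in name prefixes with both genotypes, where Drd1 was 0.46, Adora2a 0.51, Rgs9 0.495 and Foxp2 0.10. With name prefix as a block Drd1 was -0.20 and Rgs9 -0.18, and in line 3 Foxp2 was -0.21. Without 1 mouse at a time they ranged from -0.10 to 0.16 for Drd1, -0.10 to 0.22 for Adora2a, -0.20 to 0.11 for Ppp1r1b, -0.20 to 0.083 for Pde10a, -0.11 to 0.16 for Rgs9, -0.18 to 0.068 for Rarb and -0.15 to 0.17 for Gpr6. In line 1 all 8 genes were below 0 in every alternative run, at the closest -0.22 (Gpr6) with surrogate variables. Without a filter, the difference between lines passed for Adora2a (1.504, p = 0.00277), Ppp1r1b (1.48, p = 0.00496) and Rarb (1.48, p = 0.00478) in edgeR. With a prior count of 0.5, Drd2 minus Drd1 in line 1 was -0.21 and Adora2a minus Drd2 in line 1 was 0.14. Adora2a minus Drd1 was -0.014 in line 3 and -0.040 in both lines without the low connectivity mouse, and -0.0067 in both lines without mice aged 77 days, where Foxp2 minus Ppp1r1b was 0.012. The number of pairs of the 9 genes with an adjusted p under 0.05 by permutation was 36, and 28 to 36 in the alternatives, and for the marker lists 35, and 27 to 39. Alternatives that leave out prefix X424 or use name prefix as a block, and the ratio of Adora2a to Drd1, were added after the data were seen. No paired analysis was possible by replicate number because the labels give none.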

Other observations

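At the other end of the co-variation, 18 of 17420 genes had a mean r with the 8 striatal genes under -0.8. The lowest, picked after their values were seen, were Tgfb2, a growth factor (mean r -0.88, 7.66 to 95.7 CPM), Cpne6, a calcium-binding protein of excitatory neurons (-0.87, 25.4 to 418.3 CPM), Ppfia2, a presynaptic scaffold protein (-0.85), and Pcdh20, a protocadherin (-0.85, 2.49 to 57.6 CPM). None was on a marker list used here. These values share their libraries and their scale with the striatal genes and are given as a description.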
